A study of Mus musculus with 6 samples.

Results

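The genes described here are 86 well-expressed protein-coding genes that read lower in every library of antigen-presenting cancer-associated fibroblasts (apCAFs) than in any library of their MHC class II-negative counterparts (nonapCAFs). A gene was taken when the mean of its 3 nonapCAFs values was at least 200 and its highest apCAFs value lay below 0.67 times its lowest nonapCAFs value. Stra6, L1cam, Nbeal2 and Itgax also met these limits and were left out by the rule. The 86 genes come from 11752 protein-coding genes with a nonapCAFs mean of at least 200, out of 55298 genes measured. With the left-out genes put back, 90 genes met both limits, 0.766% of the 11752. Because the contrast between the groups chose these genes, their lower level in apCAFs is a description and was not tested.

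RNA-seq was run on fibroblasts sorted from orthotopic lung tumours (tumours grown in the organ of origin) of wt C57BL/6 mice more than 8 weeks old. The gate of both populations took cells of high forward scatter that carried PDPN and PDGFRA and lacked EPCAM, CD45, CD31 and mCherry. Cells with surface MHC class II were collected as apCAFs (libraries 1, 2 and 3) and cells without it as nonapCAFs (libraries 4, 5 and 6), side by side from pooled tumours in 3 independent experiments. A library is thus a pool of tumours and not a single animal, and the labels do not say which 2 libraries share an experiment.

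Cancer-associated fibroblasts are the connective tissue cells of a tumour. They deposit and cut matrix, secrete growth factors and Wnt regulators, and exchange signals with tumour and immune cells. apCAFs are the subset that carries MHC class II, the molecules that show peptides to CD4 T cells, and they have been described in several tumours alongside matrix-producing and inflammatory fibroblast states.

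The deposited values are normalized gene counts, rounded by the authors, and the sequencing depth behind them is unknown. H2-Aa, a class II chain, averaged 15455 in apCAFs and 215.3 in nonapCAFs, in the direction of the labels. Some libraries were closer to each other than others. The log2 ratio between apCAFs 1 and 2 had an SD of 0.238 and that between nonapCAFs 4 and 5 an SD of 0.246, in 17829 genes averaging 100 or more, while the remaining same-group pairs had SDs of 0.479 to 0.708. apCAFs 3 stood farthest from its group, and some results are given below with and without it. Group means and their ratios include it unless stated. The 8 fibroblast markers summed to 3.11% to 4.52% of all values in apCAFs and 1.53% to 1.71% in nonapCAFs, so the level of these markers and the level of the 86 genes ran in opposite directions. Lum was the 1 fibroblast marker of 8 with a log2 change below 0. Marker sums of other cell types were also higher in apCAFs. The 8 mesothelial markers summed to 40228 to 51533 against 5276 to 5987, with 7 of 8 called higher by limma. The pericyte and smooth muscle markers summed to 40545 to 62026 against 14979 to 17894. The epithelial sum was 11734 to 19180 against 7290 to 10504 and the endothelial sum 3319 to 4151 against 1262 to 1554. Krt8 and Krt18 made up most of the epithelial sum in nonapCAFs, averaging 3693 and 4040 in apCAFs and 3376 and 5431 in nonapCAFs. Other epithelial markers were further apart, such as Krt19 (3555 against 177), Cldn3 (1985 against 50.3) and Cdh1 (500 against 23.7). Of the 9 epithelial markers, limma called 2 higher, and 1 (Krt18) had a log2 change below 0. Most of the endothelial difference came from Kdr, with 1843, 1914 and 3066 in apCAFs and 65, 77 and 36 in nonapCAFs. Of the 8 endothelial markers, limma called 2 higher, and 2 (Pecam1 and Egfl7) had a log2 change below 0. The part of other cell types in the lower values of the 86 genes was not tested. In bulk libraries, fewer cells expressing a gene and less RNA of that gene per cell cannot be told apart.

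Promoter sequences are shown for 6 genes that stand for the main groups below: a placental hormone and a placental membrane protein, a protease, a Wnt antagonist, a chromatin protein and an integrin. Each is 1 run of 300 bases, 5′ to 3′ on the gene's own strand, from 250 bases before the RefSeq start to 50 after it (GRCm38.p6). Capitals mark matches to the motifs named further on.
Prl2c3 promoter (chr13:12800030-12800329, - strand): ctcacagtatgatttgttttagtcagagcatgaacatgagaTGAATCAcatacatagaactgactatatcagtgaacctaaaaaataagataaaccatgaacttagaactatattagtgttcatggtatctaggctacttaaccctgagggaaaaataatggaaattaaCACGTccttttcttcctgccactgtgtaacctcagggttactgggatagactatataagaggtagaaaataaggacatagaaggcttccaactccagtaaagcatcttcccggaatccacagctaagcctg
Plac1 promoter (chrX:53240061-53240360, - strand): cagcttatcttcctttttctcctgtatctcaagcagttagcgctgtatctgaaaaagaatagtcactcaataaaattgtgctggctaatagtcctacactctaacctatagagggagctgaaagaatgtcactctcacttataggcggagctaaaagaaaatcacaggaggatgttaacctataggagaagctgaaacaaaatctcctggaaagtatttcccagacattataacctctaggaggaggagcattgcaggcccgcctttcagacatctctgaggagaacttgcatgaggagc
Mmp12 promoter (chr9:7344147-7344446, + strand): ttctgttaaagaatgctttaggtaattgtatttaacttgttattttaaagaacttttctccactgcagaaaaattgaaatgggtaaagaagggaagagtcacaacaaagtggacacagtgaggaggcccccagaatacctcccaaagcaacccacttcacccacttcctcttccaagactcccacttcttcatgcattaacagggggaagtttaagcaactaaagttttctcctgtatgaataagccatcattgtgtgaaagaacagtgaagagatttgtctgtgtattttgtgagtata
Dkk2 promoter (chr3:132085042-132085341, + strand): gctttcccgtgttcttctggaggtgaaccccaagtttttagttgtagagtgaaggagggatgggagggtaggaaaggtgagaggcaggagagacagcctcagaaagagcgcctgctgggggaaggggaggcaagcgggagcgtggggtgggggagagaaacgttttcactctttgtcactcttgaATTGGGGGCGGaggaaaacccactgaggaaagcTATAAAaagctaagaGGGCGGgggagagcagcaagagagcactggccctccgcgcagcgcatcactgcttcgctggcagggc
Hmga2 promoter (chr10:120476420-120476719, - strand): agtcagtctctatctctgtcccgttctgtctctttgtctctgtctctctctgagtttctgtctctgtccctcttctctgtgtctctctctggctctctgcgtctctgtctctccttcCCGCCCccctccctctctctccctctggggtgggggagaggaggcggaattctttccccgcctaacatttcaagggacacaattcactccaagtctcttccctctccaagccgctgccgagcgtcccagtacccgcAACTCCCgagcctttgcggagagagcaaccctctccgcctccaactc
Itgb7 promoter (chr15:102231886-102232185, - strand): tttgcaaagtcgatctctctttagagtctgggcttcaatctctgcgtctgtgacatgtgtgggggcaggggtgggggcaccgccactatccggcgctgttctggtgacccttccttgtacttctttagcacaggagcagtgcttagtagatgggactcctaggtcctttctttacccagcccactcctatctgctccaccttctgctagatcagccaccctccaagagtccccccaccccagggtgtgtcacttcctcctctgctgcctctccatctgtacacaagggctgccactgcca
Letters for an AP-1 site and a hypoxia element stood in the Prl2c3 window, and a TATA box, a CCAAT box and a pair of GC boxes stood in that of Dkk2. The Hmga2 window held a GC box and an NF-kB match. No motif searched was present in the windows of Plac1, Mmp12 or Itgb7, which says only that these letters are not there.

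Of the 86 genes, 57 had a promoter in the RefSeq table and 29 did not. CpG dinucleotides were scarcer in these promoters than in those of well-expressed genes as a whole. The comparison was not matched for level, and the 86 had a lower median nonapCAFs mean (1206 against 2745). The median ratio of observed to expected CpG was 0.594 in the 57, 0.779 in 9175 promoters of well-expressed protein-coding genes and 0.389 in all 27025 promoters of the table. A ratio under 0.5 was found in 25 of 57 (43.9%), against 17.4% of well-expressed genes and 57.4% of all promoters. The ratio was 0.185 for Prl2c3, 0.220 for Plac1, 0.216 for Itgb7 and 0 for Mmp12, and higher for Dkk2 (0.499) and Hmga2 (0.544).

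Motifs were searched on both strands. The GC box (GGGCGG), the site of Sp family factors, was in 24 of 57 promoters (42.1%), against 66.4% of well-expressed genes and 35.9% of all. The CCAAT box (CCAAT) was in 22 (38.6%, against 39.2% and 38.0%). An AP-1 site (TGANTCA) was in 5 (8.77%, against 4.77% and 7.92%), and a TATA box (TATAAA) in 3 (5.26%, against 6.70% and 14.2%). The hypoxia element (ACGTG) was in 9 (15.8%, against 26.2% and 19.6%); its letters lie inside the E-box (CACGTG), which was in 4 (7.02%, against 10.5% and 7.24%). NF-kB letters (GGGANTT) were in 7 (12.3%, against 17.6% and 16.7%) and a CRE (TGACGT) in 3 (5.26%, against 12.3% and 7.59%). No promoter of the 57 held the E2F (GCGCGAA) or the amino acid response (TTGCATC) letters, which 3.17% and 1.83% of well-expressed genes held. These shares describe sequence windows and do not show binding.

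The genes encoding placental and other extraembryonic proteins stood lowest in apCAFs relative to nonapCAFs, as a group and with apCAFs 3 included. The 4 genes of this group had a median fold of 3.61, the mean of nonapCAFs over the mean of apCAFs, with a range of 2.97 to 4.81. Prl2c3, a proliferin hormone of the prolactin family that is secreted by the placenta and by growing mouse cells, read 233, 206 and 32 in apCAFs 1, 2 and 3. It read 731, 676 and 857 in nonapCAFs 4, 5 and 6 (157 ± 109 against 755 ± 92.8, SD, n = 3). Its fold of 4.81 was the highest of the 86 with all 3 apCAFs libraries. Against apCAFs 1 and 2 alone its fold was 3.44, under those of Atg9b (3.52) and Mmp12 (3.45). The neighbouring proliferin Prl2c2 read 466, 386 and 166 in apCAFs and 1273, 1157 and 1737 in nonapCAFs (4.09-fold). Both lie on chromosome 13 (Prl2c3 at 12790816 to 12800079, Prl2c2 at 12996125 to 13005383, mm10), 196 kb apart, and are near-identical copies whose reads the authors' counting could have split, so the values of each alone are uncertain. Plac1, a membrane-associated protein of the trophoblast, read 638, 618 and 85 in apCAFs and 1471, 1346 and 1383 in nonapCAFs (3.13-fold). Esx1, an X-linked homeobox factor of the placenta, read 205, 256 and 16 against 560, 462 and 395. In each of these 4 genes apCAFs 3 was the lowest library, with a median of 0.141 times the mean of apCAFs 1 and 2. Against apCAFs 1 and 2 alone, the fold was 3.26 for Prl2c2, 2.23 for Plac1 and 2.05 for Esx1.

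**Figure D1:**
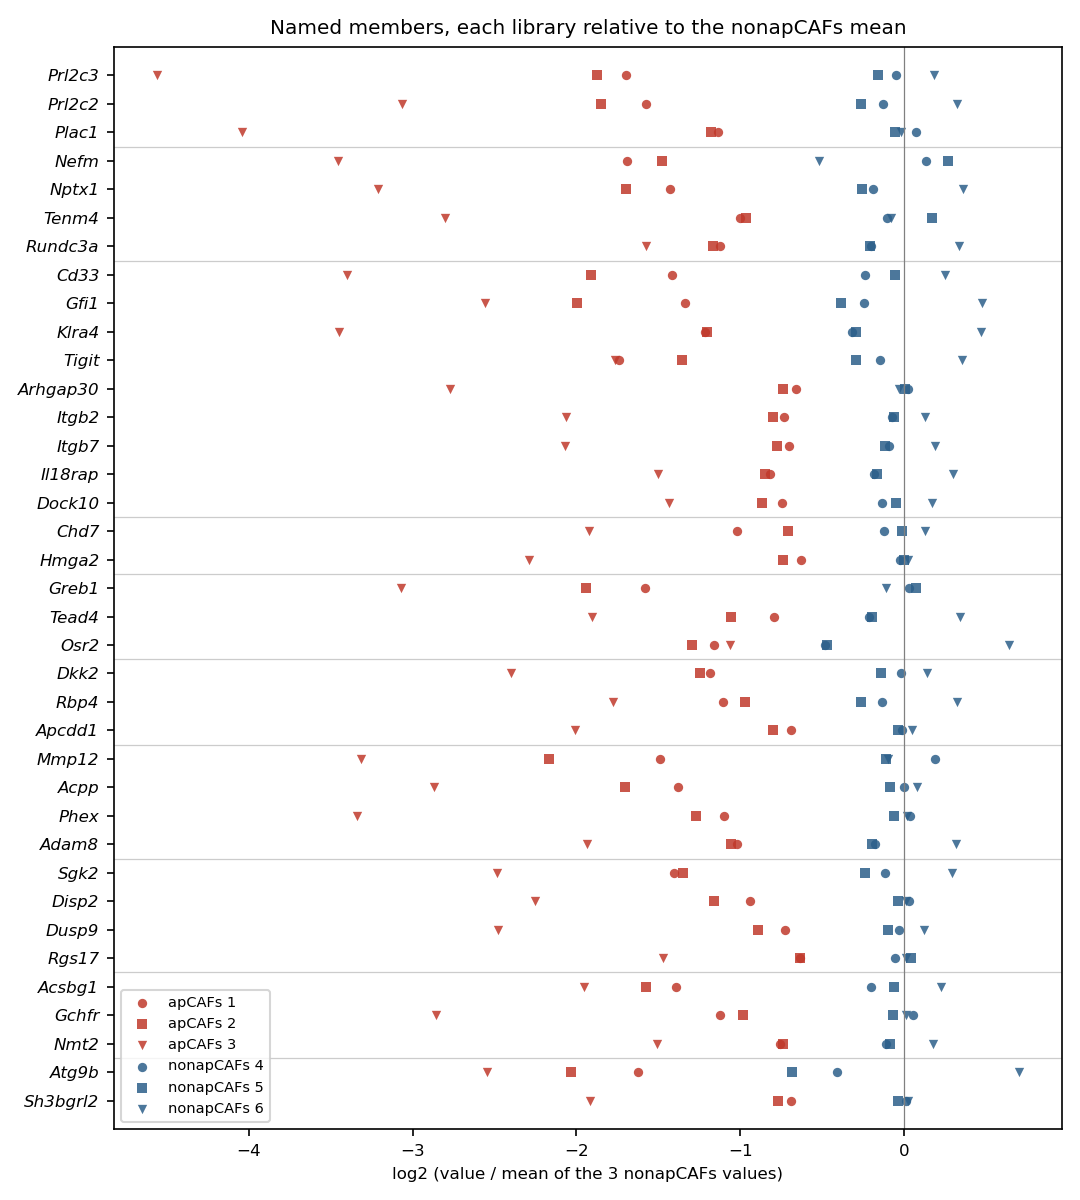
Values of the 37 genes chosen by the naming rule, in order of role, as the log2 ratio of each library to the mean of the 3 nonapCAFs values (x axis); each point is 1 library and the vertical line marks the nonapCAFs mean. No apCAFs point (red) reaches a nonapCAFs point (blue) of the same gene, which the rule fixes, and apCAFs 3 (red triangles) lies left of apCAFs 1 and 2 in all of them but Osr2.

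Neuronal and synaptic genes were the largest group, with 16 genes and a median fold of 2.50 (range 1.94 to 4.42). Nptx1, a secreted pentraxin that gathers glutamate receptors at synapses, read 4762, 3957 and 1383 in apCAFs and 11248, 10745 and 16435 in nonapCAFs (3367 ± 1765 against 12809 ± 3150, 3.80-fold). Tenm4, a teneurin adhesion receptor, read 8458, 8668 and 2425 against 15716, 19010 and 16010 (2.60-fold). In both, apCAFs 1 and 2 were alike and apCAFs 3 lay well under them. Nefm, the medium neurofilament chain, read 194, 225 and 57 in apCAFs and 687, 752 and 437 in nonapCAFs. The light chain Nefl read 172, 138 and 42 against 650, 599 and 308. These neurofilament genes were the ones in which nonapCAFs 6 lay furthest below its group, and their exons overlap by 1108 bases on opposite strands of chromosome 14. Since the strand setting of the counting is not given, reads from that stretch cannot be assigned to one of them. Crmp1, a collapsin response mediator of growth cone collapse, read 1528, 1415 and 382 against 2735, 2805 and 3010. Rundc3a, a RUN domain protein of neurons and endocrine cells, was more even, with 1566, 1524 and 1145 against 2966, 2965 and 4320. Presynaptic proteins (Bsn, Erc2, Syn1, Syngr3, Syt14), the postsynaptic scaffold Shank2 and the potassium channel Kcnq5 made up much of the rest, with folds of 2.07 to 2.91. The 8 Schwann and neural markers summed to 578 to 957 in apCAFs and 328 to 455 in nonapCAFs, and Sox10, Foxd3 and Cdh19 were among those under 20 in every library. Of the 7 markers of this list that limma tested, 5 had a log2 change below 0, with Ngfr and Erbb3 above it. The part of such cells in the values of the neuronal genes was not tested.

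Genes best known from leukocytes formed a group of 10, with a median fold of 2.35 (range 1.98 to 4.08). Itgb7, the beta chain of the gut-homing lymphocyte integrins, was the most abundant of the 86 per kb of exon, with 7806 per kb in nonapCAFs. It read 13306, 12624 and 5147 in apCAFs and 20260, 19972 and 24633 in nonapCAFs (2.09-fold). Itgb2, the beta chain shared by the leukocyte integrins, read 2009, 1917 and 798 against 3173, 3190 and 3634. Il18rap, the accessory chain of the interleukin-18 receptor, read 6287, 6152 and 3919 against 9753, 9904 and 13630 (2.03-fold). These 3 genes were among the better expressed of the set, and their alpha chain and receptor partners are described below. Dock10, a guanine nucleotide exchange factor for small GTPases, read 4451, 4090 and 2756 against 6788, 7188 and 8367. Arhgap30, a GTPase-activating protein, read 4336, 4097 and 1002 against 6970, 6869 and 6710. The fainter genes showed the wider separation of the groups. Cd33, a sialic acid-binding receptor of myeloid cells, read 79, 56 and 20 in apCAFs and 179, 203 and 251 in nonapCAFs (4.08-fold). Gfi1, a zinc finger repressor of blood cell development, read 93, 59 and 40 against 199, 180 and 327. Tigit, an inhibitory receptor of T and NK cells, read 62, 81 and 61 against 187, 169 and 265. Klra4, a lectin-like receptor of NK cells from a family of close copies, read 211, 213 and 45 against 393, 400 and 679. Its reads could have been split with those of its relatives.

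Most general leukocyte markers were low or did not share the order of these genes. Ptprc, which encodes CD45, read 24, 22 and 65 in apCAFs and 2, 29 and 34 in nonapCAFs. The 8 lymphocyte markers summed to 49 to 106 in apCAFs and 20 to 52 in nonapCAFs, and Cd3g, Cd8a, Ms4a1 and Nkg7 were among those under 20 in every library. The 10 macrophage and dendritic markers summed to 4205 to 12106 in apCAFs and 2111 to 2941 in nonapCAFs, and the 8 neutrophil markers to 58 to 232 and 26 to 130. In the macrophage and dendritic list, Itgax (267, 303 and 177 against 526, 556 and 553) and the dendritic growth factor receptor Flt3 (31, 44 and 0 against 91, 63 and 117) had the order of the leukocyte-associated genes. Most of the sum in apCAFs 1 and 2 came from Lyz2 (9898 and 9470), which read 640 in apCAFs 3 and 470, 1028 and 226 in nonapCAFs. Lyz2 was thus high in apCAFs 1 and 2 only, as was the type II alveolar sum given below. Of the 10 macrophage and dendritic markers, limma called 0 in either direction, and 3 had a log2 change below 0. The groups overlapped for the neutrophil and the lymphocyte sums, and the macrophage and dendritic sum was higher in apCAFs. The part of leukocytes in the values of the leukocyte-associated genes was not tested.

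Regulators of fetal growth, chromatin and RNA numbered 7, with folds of 2.07 to 2.55. Hmga2, a DNA-bending chromatin protein of embryonic mesenchyme, had the highest nonapCAFs mean of the 86. It read 22424, 20795 and 7074 in apCAFs and 34088, 34613 and 35241 in nonapCAFs (16764 ± 8432 against 34647 ± 577, 2.07-fold). Lin28b, an RNA-binding protein that blocks maturation of let-7 microRNAs, read 153, 153 and 20 against 254, 293 and 284. Chd7, a chromatin remodeller of the neural crest, read 1586, 1965 and 849 against 2950, 3183 and 3511. The nonapCAFs values of Hmga2, Lin28b and Chd7 were close to each other, while apCAFs 3 lay far below the other apCAFs in Hmga2 and Lin28b. Hmga2 is itself a known target of let-7.

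Among 7 transcription factors and cofactors, Greb1, an estrogen-responsive gene, showed the highest fold (4.20) with 76, 59 and 27 in apCAFs and 232, 239 and 210 in nonapCAFs. Tead4, a TEAD factor of the Hippo pathway, read 1021, 853 and 474 against 1526, 1548 and 2244. Osr2, an odd-skipped zinc finger factor of limb and palate, read 813, 742 and 869 against 1298, 1314 and 2838. Osr2 was unlike most of the set, since apCAFs 3 was the highest apCAFs library and nonapCAFs 6 was 2.17 times the mean of nonapCAFs 4 and 5. Hoxd10, a HoxD factor of the limb, read 551, 495 and 250 against 881, 846 and 968.

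The 4 genes of Wnt signalling and secreted signals had folds of 2.08 to 2.85. Dkk2, a secreted antagonist of the Wnt coreceptor, read 7017, 6736 and 3022 in apCAFs and 15770, 14481 and 17618 in nonapCAFs (5592 ± 2230 against 15956 ± 1577). Apcdd1, a membrane-bound Wnt inhibitor, read 13653, 12668 and 5478 against 21899, 21474 and 22779. Both Wnt inhibitors were abundant in nonapCAFs, at 4307 per kb of exon for Dkk2. Rbp4, the carrier of retinol in blood, read 819, 902 and 516 against 1608, 1474 and 2213. Pthlh, which encodes parathyroid hormone-related protein, read 284, 297 and 97 against 532, 548 and 465.

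Proteases, other enzymes and the secreted protein Smoc1 made up a group of 7. Mmp12, the macrophage elastase, read 451, 282 and 127 in apCAFs and 1442, 1172 and 1184 in nonapCAFs (287 ± 162 against 1266 ± 153, 4.42-fold). Acpp, which encodes prostatic acid phosphatase, read 423, 339 and 151 against 1104, 1037 and 1167 (3.62-fold). Phex, an X-linked endopeptidase of bone and phosphate balance, read 378, 336 and 80 against 831, 777 and 819. In these 3 genes the nonapCAFs libraries were closer together than the apCAFs libraries, of which apCAFs 3 was the lowest. Adam8, a membrane metalloprotease, read 1523, 1483 and 808 against 2726, 2689 and 3837.

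Receptors and intracellular signalling proteins formed a group of 12 (median fold 2.27, range 1.82 to 3.16). Sgk2, a serum and glucocorticoid-regulated kinase, read 127, 132 and 60 against 310, 285 and 412. Disp2, a dispatched family membrane protein, read 2287, 1965 and 918 against 4474, 4264 and 4412. Dusp9, an X-linked phosphatase of ERK kinases, read 4418, 3930 and 1309 against 7142, 6830 and 7931. All 3 shared the order of apCAFs 3 below apCAFs 1 and 2. Rgs17, a regulator of G-protein signalling, had the smallest fold of the 86 (1.82) with 737, 736 and 413 against 1101, 1181 and 1154.

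Of 8 genes of metabolism and transport (median fold 2.78), Acsbg1, a fatty acyl-CoA synthetase, read 187, 165 and 127 against 427, 471 and 575. Gchfr, the feedback regulator of tetrahydrobiopterin synthesis, read 432, 476 and 130 against 978, 896 and 947. Nmt2, an N-myristoyltransferase, read 11905, 12043 and 7082 against 18648, 18946 and 22778. Of these 3 genes, the apCAFs libraries were closest to each other for Acsbg1 and furthest apart for Gchfr. Among 6 other named genes, Atg9b, an autophagy membrane protein, read 327, 246 and 173 against 758, 628 and 1640. Sh3bgrl2, a small SH3-binding protein relative, read 6123, 5795 and 2617 against 9968, 9630 and 10055. The high nonapCAFs 6 value of Atg9b was 2.37 times the mean of nonapCAFs 4 and 5, the highest such ratio of the 86. The remaining 5 genes carry only clone or predicted names.

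Across the 86 genes the fold ranged from 1.82 to 4.81 with a median of 2.39. Just inside the limit, the ratio of the highest apCAFs to the lowest nonapCAFs value was 0.6691 for Tead4, 0.6694 for Rgs17 and 0.6695 for Osr2. Just outside it lay Slc9b1, a sodium/proton exchanger (0.6707), and Fam89a (0.6719). Genes on either side of the limit thus hardly differed in this ratio.

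Calls from tests across all genes are given only as background, since they use the same contrast as the rule. limma called 4 of the 86 lower (Acsbg1, Iqcd, Tigit and Zfp345), where 0.486% of all 36443 genes tested were called lower. In the authors' deposited table, 79 of the 86 were lower at a DESeq2 adjusted p under 0.05, where 9.77% of 19255 genes were. All apCAFs values lay below all nonapCAFs values in the 86 by construction, and in 28.6% of the 11752 well-expressed protein-coding genes. Without apCAFs 3, limma called 30 of the 86 lower, and with any other library left out it called 0.

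The apCAFs libraries did not share these genes evenly: apCAFs 3 was the lowest apCAFs library in 82 of the 86 (95.3%). The same held for 45.5% of the 11752 well-expressed protein-coding genes, and for 81.0% of the 3271 other genes in which all apCAFs lay below all nonapCAFs. The rule sets a limit on the highest apCAFs value and none on the order of the libraries, but it reads the same values, so this too is a description. Exceptions were Iqcd, a ciliary protein (ratio of apCAFs 3 to the mean of apCAFs 1 and 2 of 1.19), Osr2 (1.12), Arhgef28 (1.03) and Zfp345 (0.880, where apCAFs 2 read 105 and apCAFs 3 read 106). The median of this ratio was 0.404 in the 86, 1 in the 11752 and 0.835 in the 3271. It lay under 0.5 in 59 of the 86 (68.6%), against 4.04% and 7.52%.

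Relative to the nonapCAFs mean, apCAFs 1 and 2 averaged a median of 0.515 over the 86 genes, and apCAFs 3 a median of 0.214. Summed over the 86, the values made up 0.185%, 0.174% and 0.0737% of all values in apCAFs 1, 2 and 3, and 0.336%, 0.341% and 0.414% in nonapCAFs 4, 5 and 6. The coefficient of variation within apCAFs had a median of 43.5% for the 86, against 12.5% for the 11752. Within nonapCAFs it was 9.63% against 7.35%. The spread of these genes was therefore mostly among the apCAFs libraries. nonapCAFs 6 was the highest of its group in 54 of the 86 (62.8%), against 40.8% of the 11752.

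**Figure D2:**
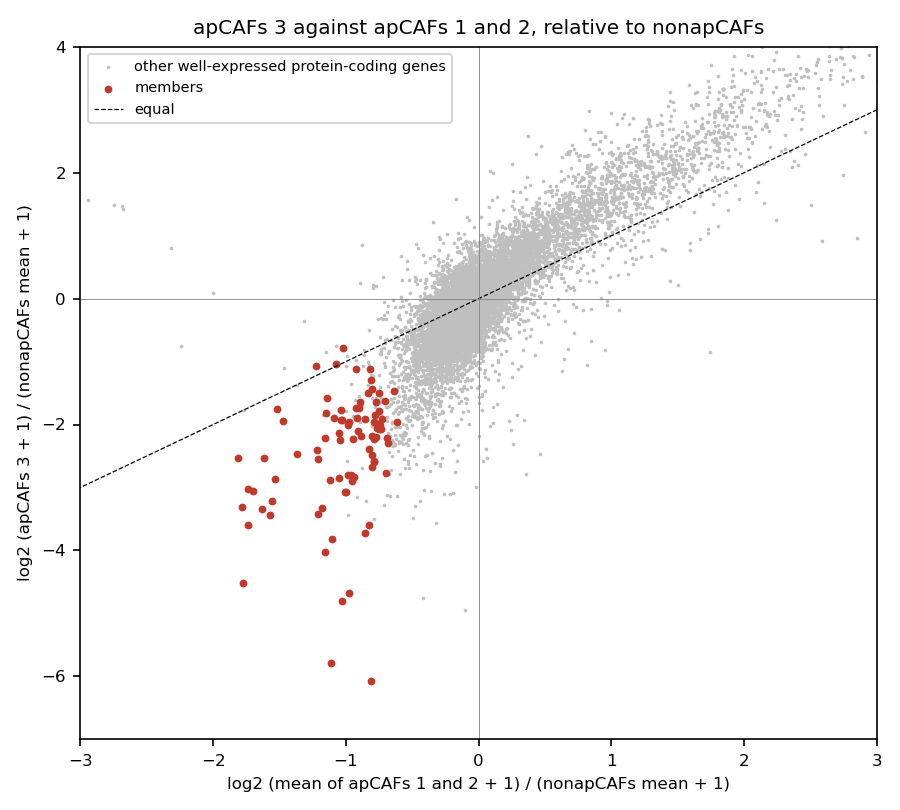
Each point is 1 well-expressed protein-coding gene: the log2 ratio of the mean of apCAFs 1 and 2 to the nonapCAFs mean (x axis) against the log2 ratio of apCAFs 3 to the same mean (y axis), 1 added to each value, with 52 of 11752 genes outside the axes. The 86 genes (red) lie at the lower left and, apart from a few, below the dashed line of equal ratios, while most genes above 0 lie over it.

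Genes at the other end showed the mirrored order in apCAFs 3. The same limits turned round took 1039 well-expressed genes higher in apCAFs, and apCAFs 3 was the highest apCAFs library in 965 of them (92.9%). The same held for 45.5% of the 11752 and for 82.2% of the 2003 other genes in which all apCAFs lay above all nonapCAFs. The median ratio of apCAFs 3 to the mean of apCAFs 1 and 2 was 1.61 in the 1039. Marker sums also set this library apart. The fibroblast markers summed to 4219191 in apCAFs 3 and to 2811332 and 2793239 in apCAFs 1 and 2. The type II alveolar sum was 5582 for apCAFs 3 and 92779 and 76552 for its group partners, and nonapCAFs ranged from 5696 to 5945. The erythroid and platelet markers summed to 8372 in apCAFs 3 and 7280 in nonapCAFs 6, against 406 to 1311 in the other libraries. The type II alveolar sum thus put apCAFs 1 and 2 above apCAFs 3 and nonapCAFs. The part of these marker differences in the low values of apCAFs 3 was not tested.

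**Figure D3:**
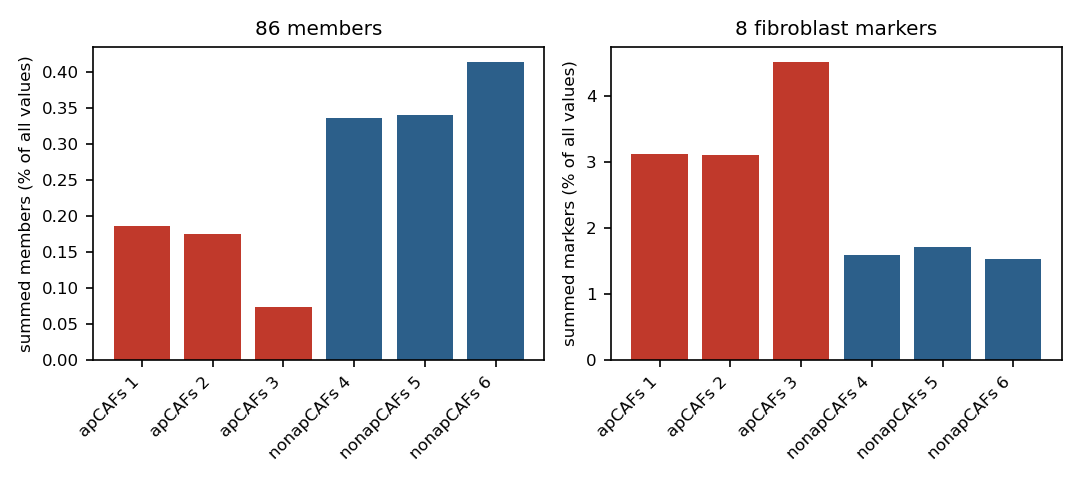
Bars give, for each library, the summed values of the 86 genes (left) and of the 8 fibroblast markers (right) as a percent of all values of that library. The 86 genes are lowest in apCAFs 3 (0.0737%) and highest in nonapCAFs 6 (0.414%), and the fibroblast markers are highest in apCAFs 3 (4.52%).

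The choice of genes was repeated without each library in turn, and the library left out was then read in the genes chosen. Without apCAFs 3 the rule took 91 genes, and 89 of them lay below all nonapCAFs in apCAFs 3 (97.8%), against 45.5% of the 11752. Of the 91, 86 also passed the 0.67 limit there (94.5%, against 13.6%), and by definition these are the 86 genes of the set. The other 5 were the chemokine Ccl9 (605 in apCAFs 3) and the matrix protein Thbs4 (486), which lay above a nonapCAFs value, and Zfp169, Cdh13 and Kank3, which did not reach the limit. The median ratio of apCAFs 3 to the lowest nonapCAFs value was 0.241 in the 91 genes and 1.05 in the 11752.

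Left out in the same way, apCAFs 1 lay below all nonapCAFs in 146 of 147 genes and passed the limit in 86 (58.5%, against 1.15% of all). apCAFs 2 did so in 118 of 119 and passed in 86 (72.3%, against 1.40%). nonapCAFs 4 lay above all apCAFs in 111 of 111 and passed in 88, nonapCAFs 5 in 110 of 111 and passed in 87, and nonapCAFs 6 in 109 of 123 and passed in 83 (67.5%, against 2.59%). For each apCAFs library left out, the 86 that passed are the genes of the set by definition. Each left-out library was also read against values of the other group that had chosen the genes. The background genes were not chosen in this way. The held-out libraries share their experiment with a library of the other group and, for apCAFs 1 and 2 and nonapCAFs 4 and 5, are close to the partner that remained.

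The 86 genes were of moderate level. Their nonapCAFs mean had a median of 1206 (range 207 to 34647), against 2745 for the 11752, and 48 of them reached 1000. Per kb of exon the median was 309, against 604. Their genes spanned a median of 43.1 kb, against 24.6 kb, with similar exon length (4.26 kb against 4.57 kb) and GC content (45.1% against 45.9%). Chromosome X held 9 of the 86 (10.5%), against 360 of the 11752 (3.06%) and 65 of the 3271 other lower genes (1.99%). Esx1, Plac1, Dusp9, Phex, Syn1, the RNA export factor Nxf3, the patched-domain gene Ptchd1 and 2 predicted genes were the ones on X. Neighbours less than 1 Mb apart were few among the 86. Besides the proliferins and the neurofilaments, Il18rap lay 129 kb from Slc9a2 on chromosome 1, Prl2c2 352 kb from Gpr137b on chromosome 13, Disp2 356 kb from Gchfr on chromosome 2, and Cd33 797 kb from a predicted gene on chromosome 7.

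Exons of 26 of the 86 overlap another gene of the table. For 11 of them the other gene had at least 20% of their nonapCAFs mean, so that reads may have been shared. Iqcd overlaps Rita1, Syn1 overlaps Araf by 9 bases and Rgs20 overlaps Atp6v1h, each on the opposite strand. In these 3 pairs the nonapCAFs mean of the other gene was 323% to 1634% of that of the gene of the set.

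Relatives and partners of the 86 were compared next. They were picked for their family, in 28 families, after the 86 were known but not for their own values. Family genes that met the rule, however, count among the 86, so the relatives are only those that did not meet it. Of 80 relatives tested, limma called 10 higher in apCAFs (12.5%, against 3.91% of all genes) and 0 lower, and 40 had a log2 change below 0. All genes include those that met the rule, so these shares differ in make-up. Tigit, a family gene called lower, counts among the 86 and not among the relatives. Under the other scalings 7 to 10 of the relatives were called higher and 40 to 43 lay below 0. The calls depended on which libraries entered: with the close pairs averaged 0 of the 10 were called, and without a single library 3 to 9 were, with 3 left without apCAFs 1, apCAFs 2, nonapCAFs 4 or nonapCAFs 5. All 10 stayed above 0 in log2 in each of 13 alternatives. The difference between a gene of the set and its relative was not tested.

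In the interleukin-18 system, Il18rap was lower in apCAFs while its partner chain Il18r1, which binds the cytokine, was higher. Il18r1 read 1571, 1858 and 1040 in apCAFs and 56, 74 and 58 in nonapCAFs (log2 4.52, SE 0.27, limma adjusted p = 0.00712), and its adjusted p ranged from 0.000186 to 0.194 over the alternatives. The groups were far apart in every library. The decoy Il18bp was also higher (log2 1.55, limma adjusted p = 0.0173), while Il18 itself was not called.

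Among the dickkopf genes, Dkk2 was lower and Dkk3 higher in apCAFs. Dkk3, a divergent family member, read 11191, 10845 and 18218 in apCAFs and 2292, 2444 and 3017 in nonapCAFs (log2 2.34, SE 0.26, limma adjusted p = 0.0181, 0.000708 to 0.211 over the alternatives). Dkk1 read at most 13 and Dkk4 at most 1 in any library, and neither was called. The odd-skipped factors divided likewise: Osr1 read 6917, 7211 and 17205 against 1549, 1536 and 2298 (log2 2.43, SE 0.42, limma adjusted p = 0.0447), but it was not called with values divided by library totals (0.057) or quantile-normalized (0.0507), and its adjusted p ran from 0.00431 to 0.27 over all alternatives. Of the teneurins, Tenm1 and Tenm2 read at most 16 in any library (log2 -0.20 and -2.02, not called) and Tenm3 read 1477, 1353 and 3143 against 347, 391 and 469 (log2 2.21, limma adjusted p = 0.0412, not called under the same scalings with 0.0521 and 0.0561, and 0.00412 to 0.254 over all alternatives).

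Relatives of the synaptic and neuronal genes ran both ways. Relatives without a call lay on both sides. Shank3, Rims2, Syngr1 and Prph had log2 changes of -0.83, -1.21, -0.57 and -1.02. Rims1, Ina, Pclo and Dpysl4 had log2 changes of 2.67, 2.41, 1.77 and 0.94. All those called were higher in apCAFs. Syn2, a synapsin like Syn1, read 421, 513 and 569 in apCAFs and 71, 59 and 144 in nonapCAFs (log2 2.54, limma adjusted p = 0.0303, and 0.00369 to 0.247 over the alternatives). Syn3 was called as well (log2 2.61), but its exons overlap those of Timp3 on the opposite strand by 1733 bases, so that its reads cannot be told from those of Timp3. Dpysl5, a collapsin response mediator like Crmp1, read 893, 715 and 1760 against 15, 41 and 19 (log2 5.45, SE 0.51, limma adjusted p = 0.0141). Shank1, related to Shank2, read 533, 552 and 995 against 178, 203 and 162 (log2 1.88, limma adjusted p = 0.0346, 0.0585 with quantile-normalized values, and 0.00424 to 0.237 over all alternatives). Nectin2, a ligand of TIGIT, read 8723, 8345 and 20857 against 2004, 2043 and 2246 (log2 2.46, limma adjusted p = 0.0371). In Dpysl5, Shank1 and Nectin2, apCAFs 3 was the highest library, in mirror order to most of the 86.

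**Figure D4:**
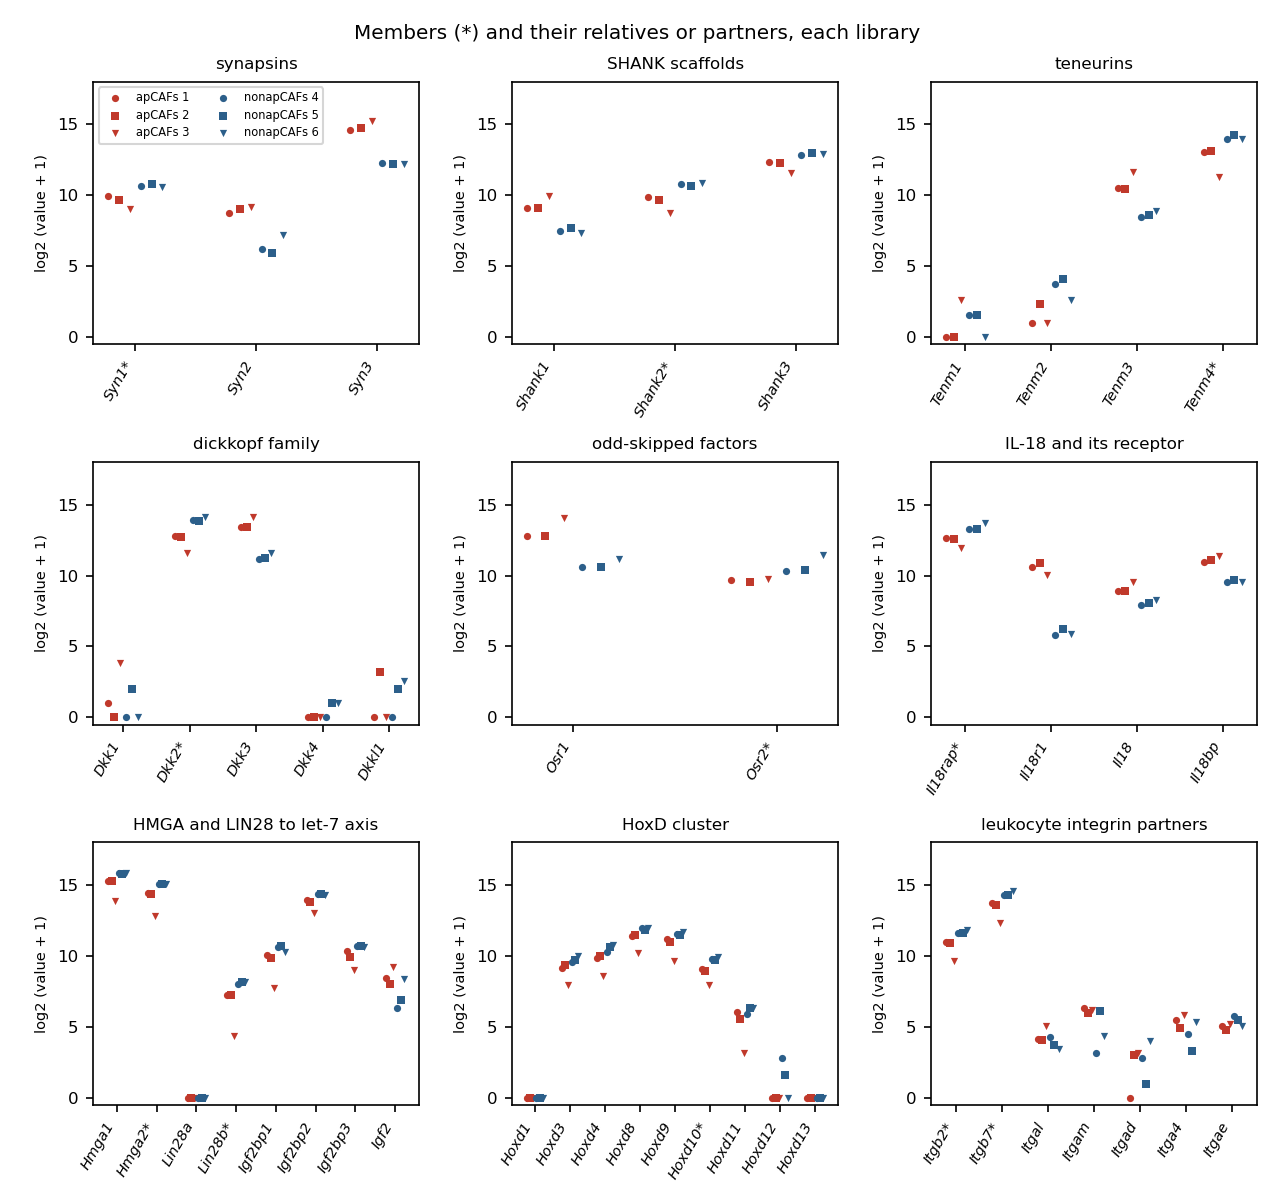
Each panel is 1 family; points give log2 (value + 1) of each library for the genes of the set (*) and their relatives or partners, apCAFs red and nonapCAFs blue. Il18r1, Dkk3, Osr1, Tenm3, Syn2, Syn3 and Shank1 lie higher in apCAFs (their limma calls are lost with the close pairs averaged), whereas the apCAFs values of Hmga1, Igf2bp2, Igf2bp3, Hoxd8 and Hoxd9 lie below the nonapCAFs values without a call.

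Other relatives had the order of the set without a call. Hmga1 read 40584, 40284 and 15230 in apCAFs and 59536, 55347 and 58742 in nonapCAFs (log2 -0.99, SE 0.42, limma adjusted p = 0.292). Igf2bp1, Igf2bp2 and Igf2bp3, RNA-binding proteins of fetal growth and known let-7 targets, had log2 changes of -1.31, -0.76 and -0.93. apCAFs 3 was the lowest library in each of these 4 genes, as in Hmga2. Lin28a, the relative of Lin28b, was listed at 0 in all libraries. The HoxD genes beside Hoxd10 had log2 changes of -0.94 for Hoxd3, -1.07 for Hoxd4 and -0.89 for Hoxd8, none called, and Hoxd9 lay between them. Hoxd11 (-1.26) and Hoxd12 (-1.46) were not called either. Nptxr, the receptor relative of Nptx1, read 25185, 22861 and 7169 against 35929, 35704 and 33469 (log2 -1.13, limma adjusted p = 0.303). Exons overlap by 388 bases between Hoxd3 and Hoxd4, 890 between Nptxr and Npcd, and 1529 between Igf2bp3 and Malsu1. Reads of these genes may therefore have been shared. Members of the same families also lay the other way without a call, with log2 changes of 1.41 for Igf2, 0.48 for Nptx2 and 0.77 for Tead3, while Tead1 and Tead2 lay within 0.31 of 0.

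The alpha chains that pair with the leukocyte integrin beta chains read low, apart from Itgax. Itgax (CD11c), a partner of Itgb2 with the values given above, met the limits of the rule and was left out by name. Itgal, Itgam and Itgad, the other partners of Itgb2, lay between 10 and 32, 8 and 80, and 0 and 15. Itga4 and Itgae, which pair with Itgb7, lay between 9 and 56 and between 27 and 53. Per kb of exon, the nonapCAFs mean was 1092 for Itgb2 and 7806 for Itgb7, 113 for Itgax and 1.63 to 9.39 for the 5 other alpha chains. In apCAFs the same means were 516, 3740, 51.8 and 1.11 to 14.4. limma called none of these alpha chains at its adjusted threshold.

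Calls in the pathway lists that hold genes of the set are set beside those over all genes. Of all 36443 genes tested, limma called 0.486% lower and 3.91% higher. Lower calls were thus rare everywhere, and few of them in a list says little about that list. The genes of the set named in these lists were not called either. In the Wnt list, which holds Dkk2, limma called 8 of 28 genes higher and 0 lower, with a median log2 change of 1.37, against -0.04 over all genes tested. Of 32 matrix proteases and inhibitors, which include Mmp12 and Adam8, 7 were called higher and 0 lower (median 1.15). Of 24 integrins and tetraspanins, which include Itgb2 and Itgb7, 4 were called higher and 0 lower (median 0.47). The retinoid list, with Rbp4, had 3 of 18 higher and 1 lower (median 0.54), the lower gene being Stra6. Of 30 chromatin and transcription regulators, which include Chd7, 0 were called in either direction (median -0.09). With the close pairs averaged, limma called 0 genes of the whole table at this threshold, against 1209 lower and 3491 higher at an unadjusted p under 0.05.

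Other scalings took in the same genes and more. Dividing by library totals or quantile normalization moved the median log2 change of all genes from -0.04 to -0.18 and -0.19, and all 86 genes still met the rule under both and with median-ratio scaling. The median log2 change of the 86 was -1.36 with all libraries, -1.51 and -1.60 under those scalings, and -0.95 without apCAFs 3. All 86 log2 changes lay below 0 in each of these fits, which the choice of genes fixes.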

How the data were processed

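RNA-seq libraries of sorted fibroblasts (3 apCAFs, 3 nonapCAFs) were used as deposited. Per the file headers the values are counts normalized by the authors, here found to be whole numbers and treated as a score; totals of 77960347 to 93330791 are not depths, and precision is judged from the spread between libraries. The deposited table also gives the authors' DESeq2 p-value and adjusted p-value, each gene's GC percent, and a fold change both as a ratio and as log2. The authors used Trim Galore, Bowtie2, DESeq2 and mm10, per the submitters' processing notes; for their roles and versions, and for counter, annotation and strand, nothing is given in the sources used here.

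A group effect on log2(value + 1) was estimated with limma 3.58.1 (R 4.3.3) over the 36443 genes above 0 in at least 1 library, two-sided, Benjamini-Hochberg adjusted over all of them, and called at 0.05; SE is limma's. The design had put a count test first and this fit as fallback, which the normalized values required. The log2(value + 1) scale understates changes of low genes. The fit was tested on simulated data.

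Members, lists and roles were chosen with earlier results of these data known. The naming rule gave 37 genes: the 20 with the smallest ratio of highest apCAFs to lowest nonapCAFs value, the 12 with the highest nonapCAFs mean, the 3 just inside and 3 just outside the limit, and members of fixed lists, clone names not named; 1 gene outside the limit is not reported here. All other genes named (such as Esx1, Nefl, Crmp1, Lin28b, Hoxd10, Pthlh and the relatives described by name) were chosen after their values were seen. The study's labels call the libraries independent experiments. Where close pairs are technical repeats, the p-values would count technical spread as spread between experiments. Gene and exon lengths came from GENCODE M21, in which 55117 of 55298 identifiers were found, and promoters from RefSeq. Alternatives changed scaling, pseudocount, low-value filter, variance trend and libraries, and the limits of the rule.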

Additional observations from a re-analysis of the deposited data

How the results depend on the processing

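No paired analysis was possible because no replicate number occurs in both groups (1 to 3 and 4 to 6) and the shared experiments are not labelled. The number of genes meeting the rule was 86; it was 158 with values divided by library totals, 195 with quantile-normalized values, 144 with the close pairs averaged, 13 at a ratio limit of 0.5, 48 at a nonapCAFs mean of at least 1000, and 91 to 147 with a library left out. limma called 177 genes lower: 286 with quantile-normalized values, 430 among genes with a mean of at least 100, 490 with a variance trend, 0 with the close pairs averaged (1209 at an unadjusted p under 0.05), and 56 to 198 with a library left out. It called 1425 higher: 2309 with a pseudocount of 10, 2318 with the mean filter, 2963 with the trend, 0 with the close pairs averaged (3491 unadjusted), and 254 to 1601 with a library left out. Higher genes were 89.0% of all calls, but 78.7% with quantile-normalized values and, without nonapCAFs 4, 5 or 6, 58.4%, 60.3% and 76.5%. Of the 86, 4 were called lower: 21 with a pseudocount of 10, 38 with the mean filter, 47 with the trend, 0 with the close pairs averaged, and 0 to 30 with a library left out. Of log2 changes of the named genes, 331 of the alternatives kept the side of the threshold, 28 passed newly, 11 were lost and 0 reversed; for the 10 called relatives, 82 kept their call and 48 lost it. The causes were not tested. Depth is unknown, so no counting error can be given.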
